A study of Mus musculus with 8 samples.

Results

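The genes described here are 41 genes of fat cells, white and brown, among 27179 genes counted in whole mouse uteri at postnatal day (PD) 10. They were chosen by symbol: secreted proteins, lipid droplet proteins, adipogenic transcription factors, fatty acid transporters, lipases, enzymes of triglyceride and fatty acid synthesis, 3 brown fat genes (*Ucp1*, *Cidea* and *Elovl3*) and 4 others. The choice was made with differences between the genotypes already known, so every cKO against control value of these genes is a description and supports nothing further. Control mice carried *Ezh2* floxed on both alleles without Cre. Conditional knockout (cKO) mice carried the same floxed alleles with *Amhr2*-Cre, so the alleles before recombination were shared by all 8 libraries, on a mixed C57BL/6 and 129SvEv background. *Amhr2*-Cre acts in cells that derive from the mesenchyme of the female reproductive tract, so cells of other origin in a cKO uterus kept the floxed gene. There were 4 libraries per genotype, named Ctrl 1 to Ctrl 4 and cKO 1 to cKO 4, and the sources used here do not state how many mice gave each. The p-values below therefore measure only the spread between these samples.

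White adipocytes store triglyceride in a single large droplet coated by perilipins and secrete hormones such as adiponectin and leptin. Brown adipocytes hold many small droplets and burn fatty acids through the uncoupling protein UCP1. PPARG and the C/EBP factors drive the differentiation of both kinds of cell, and lipogenic enzymes make the fatty acids they store. Around the uterus, fat lies in the mesometrium, the sheet of tissue that carries the uterine vessels. Several of these genes are also used by other cells. *Lpl* and *Cd36* are expressed in muscle and endothelium, and fatty acid synthesis takes place in many epithelia.

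Library totals ran from 26234429 to 36685807 counts in controls and from 25287141 to 32658315 in cKO. Levels are CPM (counts scaled to a common library size) after TMM scaling, and 3 counts, taken as the floor of detection, stood for 0.0824 to 0.117 CPM. Counting intervals and floors cover counting error only, since no molecular identifiers are stated for these reads. The targeted gene *Ezh2* was at 49.5, 40.5, 54.7 and 35.4 CPM in Ctrl 1 to 4 and at 30.4, 38.0, 40.7 and 38.0 CPM in cKO 1 to 4. These ranges overlapped (log2 fold change -0.29, SE 0.13, adjusted p = 0.247 in edgeR's quasi-likelihood test), and a count over the whole gene cannot show a loss of single exons in part of the cells.

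One library stood apart. For most of the genes that define a white adipocyte, cKO 1, cKO 2 and cKO 3 were far above all controls, while cKO 4 lay at the level of the controls. The summed level of the 14 genes whose highest library exceeded the lowest over 4-fold was 26.9 to 33.2 CPM in controls, 210.0 CPM in cKO 1, 419.9 CPM in cKO 2, 208.1 CPM in cKO 3 and 27.0 CPM in cKO 4. The 14 genes were *Adipoq*, *Cfd*, *Lep*, *Retn*, *Plin1*, *Plin4*, *Cidec*, *Pparg*, *Fabp4*, *Cd36*, *Gpd1*, *Pck1*, *Car3* and *Sncg*. The other 27 genes summed to between 1573 and 1714 CPM in controls and to 1873, 2060, 1858 and 1723 CPM in cKO 1 to 4. All 41 genes together held 0.160% to 0.173% of the counts in controls and 0.212%, 0.249%, 0.205% and 0.174% in cKO 1 to 4. In bulk tissue, more fat cells and more of these transcripts per cell cannot be told apart. The sources used here do not state whether mesometrial tissue was trimmed away before RNA extraction, so fat attached to the uterus and fat within it cannot be told apart either.

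Of the 41 genes, 38 passed the filter on low counts (CPM over 0.2 in at least 4 libraries), and *Lep*, *Retn* and *Ucp1* did not. A gene was called differentially expressed (DE) when its fold change was over 2 and its adjusted p below 0.05. One of the 38 was DE and higher in cKO, *Pparg*, where 0.666% of all 16658 genes tested were, and 0 were DE and lower, against a background of 0.636%. At an unadjusted p below 0.05 there were 18, all higher in cKO, beside 21.2% of all genes. DESeq2 called 11, all higher, beside 0.828% of all genes, and limma-voom called 0, beside 0.594%. Without a filter on low counts the number was 0 (0.553% of all genes), with the filter in 3 libraries 1 (0.704%), and with the replicate number as a block 4 (0.816%). By the adjusted p alone, at any fold, it was again *Pparg* only, where 5.34% of all genes passed. The log2 fold change was above 0 in 31 of the 38 and below 0 in 7, and 50.1% of all genes tested lay above 0. It was over 1 in 11, against 1.7% of all genes, and the median was 0.26 against 0.00 over all genes tested. These shares used the contrast by which the genes were chosen, and nothing is read from them. Without cKO 4, 12 of the 38 were DE and higher, beside 1.25% of all genes. The 12 were *Adipoq*, *Cfd*, *Plin1*, *Cidec*, *Pparg*, *Fabp4*, *Cd36*, *Acsl1*, *Gpd1*, *Pck1*, *Car3* and *Sncg*. The number also differed with the tool and with the other libraries left out, down to 0 for each of 6 of them. For the 11 other than *Pparg*, the adjusted p in edgeR was 0.0937 to 0.237 with 1 of the 7 libraries other than cKO 4 left out, and 0.117 to 0.636 with limma-voom. cKO 4 was singled out because its values of these genes were known to be low, so each value given without it, here and below, is a description and not support.

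**Figure D1:**
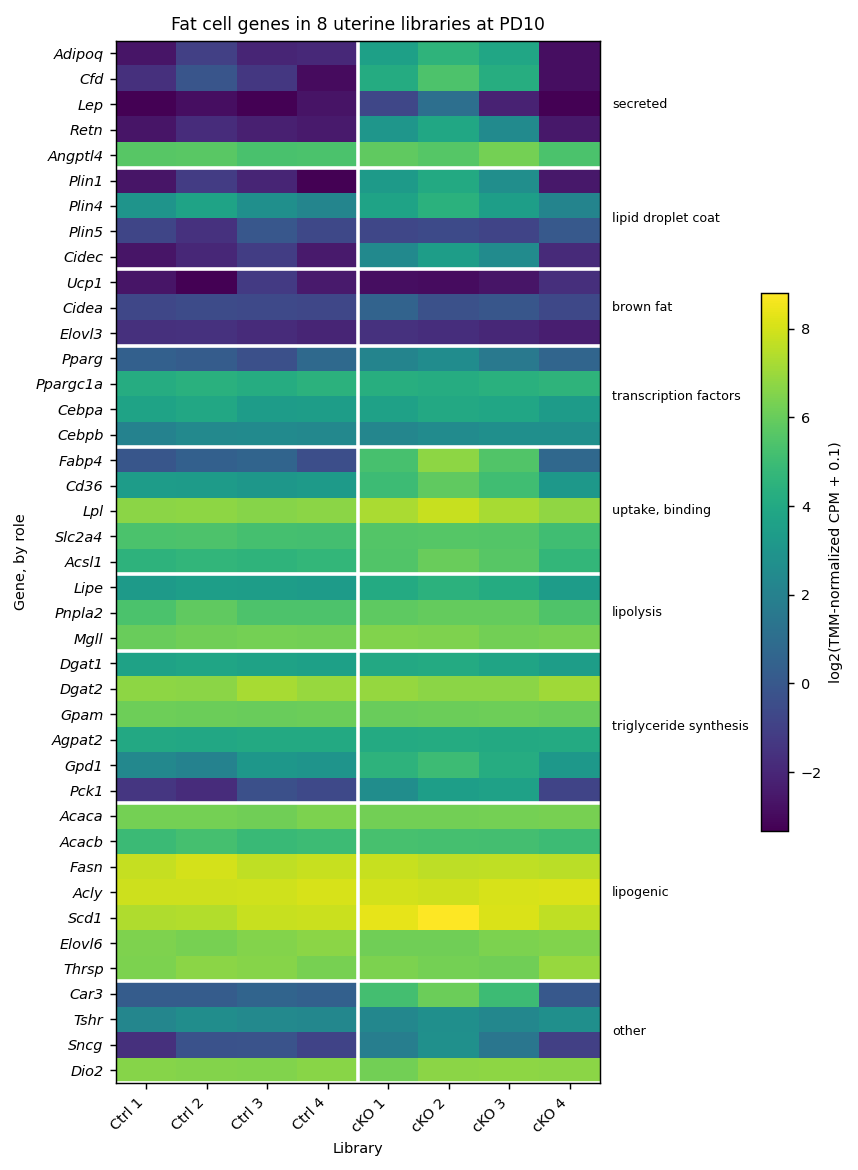
Level of each of the 41 fat cell genes (rows, by role) in each of the 8 libraries (columns), as log2 of TMM-normalized CPM plus 0.1. *Adipoq*, *Cfd*, *Retn*, *Plin1* and *Cidec* are dark in the 4 controls and in cKO 4 and light in cKO 1 to 3, while *Ucp1* and *Elovl3* are dark in all libraries and the fatty acid synthesis genes are light in all.

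The promoters of 4 genes that were high together, and of the brown fat gene *Ucp1* for comparison, are shown as the 250 bases before the RefSeq transcription start on GRCm38.p6, written 5′ to 3′ on the strand of the gene. RefSeq gave such a window for 29 of the 41 genes. The motifs searched on both strands were the TATA box, with the letters TATAAA, the CCAAT box, the C/EBP motif, with the letters TTNNGCAA, and the direct repeat DR1 to which PPAR and RXR bind as a pair. Capitals mark their matches, and the *Pparg* window is that of the most downstream of its 3 starts.
Adipoq (chr16:23146286-23146535, + strand): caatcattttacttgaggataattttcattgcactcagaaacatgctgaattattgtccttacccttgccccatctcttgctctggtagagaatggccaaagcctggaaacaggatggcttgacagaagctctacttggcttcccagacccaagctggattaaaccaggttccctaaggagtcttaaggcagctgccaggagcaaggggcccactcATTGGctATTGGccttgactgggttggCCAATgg
Retn (chr8:3655520-3655769, + strand): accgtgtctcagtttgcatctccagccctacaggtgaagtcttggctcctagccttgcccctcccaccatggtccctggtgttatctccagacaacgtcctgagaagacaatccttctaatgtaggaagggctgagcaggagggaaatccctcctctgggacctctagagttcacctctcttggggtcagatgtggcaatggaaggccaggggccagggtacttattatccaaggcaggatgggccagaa
Lep (chr6:29059971-29060220, + strand): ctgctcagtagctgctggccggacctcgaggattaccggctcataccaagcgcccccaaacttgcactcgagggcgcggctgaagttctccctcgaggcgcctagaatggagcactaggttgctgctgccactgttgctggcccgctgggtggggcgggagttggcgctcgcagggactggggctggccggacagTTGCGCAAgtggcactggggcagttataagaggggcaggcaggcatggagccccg
Pparg (chr6:115421816-115422065, + strand): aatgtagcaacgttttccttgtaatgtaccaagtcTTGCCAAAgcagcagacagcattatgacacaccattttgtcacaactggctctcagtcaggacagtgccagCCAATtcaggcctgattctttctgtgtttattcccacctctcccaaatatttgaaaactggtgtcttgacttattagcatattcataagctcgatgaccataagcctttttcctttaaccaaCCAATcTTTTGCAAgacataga
Ucp1 (chr8:83290098-83290347, + strand): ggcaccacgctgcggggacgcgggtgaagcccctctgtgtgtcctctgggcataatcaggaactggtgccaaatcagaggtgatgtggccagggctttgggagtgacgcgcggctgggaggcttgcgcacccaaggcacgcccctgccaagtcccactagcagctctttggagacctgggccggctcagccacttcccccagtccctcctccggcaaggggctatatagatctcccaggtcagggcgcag
The *Adipoq* window held CCAAT boxes 34, 27 and 7 bases before the start. The *Lep* window held a C/EBP motif that reads alike on both strands 55 bases before the start. The *Pparg* window held C/EBP motifs 215 and 16 bases and CCAAT boxes 144 and 22 bases before it. No match of these motifs was found in the *Retn* or *Ucp1* window. No match of one motif overlapped a match of another in these windows. Some genes had more than 1 window, and the 29 genes had 37. Of the 37 windows, 11 held a CCAAT box, 5 a C/EBP motif, 4 a TATA box and 0 the direct repeat. Among 32536 mouse promoter windows of the same length the shares were 33.8%, 9.57%, 12.3% and 0.341%. The 5 genes with a C/EBP motif were *Pparg*, *Lep*, *Plin1*, *Cidec* and *Dio2*, and a match describes letters only.

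The secreted proteins held some of the widest differences between libraries. *Adipoq* encodes adiponectin, a hormone made almost only by fat cells, and lies at chr16:23146536-23157968 (gene positions are those of RefSeq on GRCm38.p6). It was at 0.0631, 0.387, 0.143 and 0.165 CPM in Ctrl 1 to 4 and at 11.7, 23.7, 14.4 and 0.0350 CPM in cKO 1 to 4. The value in cKO 4 stands for 1 count, below every control, whereas cKO 1 held 301 counts. *Cfd*, the complement protease adipsin, was at 0.221, 0.812, 0.285 and 0.0275 CPM in controls and at 17.7, 42.6, 18.5 and 0.0350 CPM in cKO. Its cKO 4 value was again 1 count and lay within the range of the controls. *Retn*, the hormone resistin, was at 0.0631, 0.193, 0.107 and 0.0824 CPM in controls and at 8.27, 14.9, 5.54 and 0.0701 CPM in cKO. For these 3 genes cKO 1, cKO 2 and cKO 3 each lay above every control, and the groups overlapped through cKO 4 alone.

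*Lep*, the satiety hormone leptin, was the least abundant of the secreted proteins, with 0, 0.0387, 0 and 0.0549 CPM in Ctrl 1 to 4 and 0.505, 2.07, 0.123 and 0 CPM in cKO 1 to 4. A count of 0 allowed up to 0.0946 CPM in Ctrl 1, 0.107 CPM in Ctrl 3 and 0.105 CPM in cKO 4. Summed over libraries, 3 control and 79 cKO counts gave a ratio of 27.5 at equal depth (95% counting interval 9.09 to 136.4), and 62 of the 79 came from cKO 2. The log2 fold change of *Adipoq* was 6.07 (SE 1.47, adjusted p = 0.0699 in edgeR's quasi-likelihood test), and without cKO 4 it was 6.49 (SE 0.39, adjusted p = 4.44e-05). The adjusted p of *Adipoq* was 0.133 to 0.204 in edgeR with 1 of the other 7 libraries left out, and 0.602 with limma-voom. The log2 fold change of *Cfd* was 5.98 (SE 1.57, adjusted p = 0.0897 in edgeR's quasi-likelihood test), and without cKO 4 it was 6.40 (SE 0.64, adjusted p = 0.0022). With all 8 libraries neither passed in edgeR, and both were DE in DESeq2 and with the replicate number as a block. *Retn* did not pass the filter on low counts, and no test is given for it. *Angptl4*, a secreted inhibitor of lipoprotein lipase made by many tissues, stood apart from the others of its group. It was at 40.2 to 52.8 CPM in controls and at 57.7, 48.5, 76.5 and 41.9 CPM in cKO 1 to 4, with overlapping ranges (log2 fold change 0.29, SE 0.18).

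**Figure D2:**
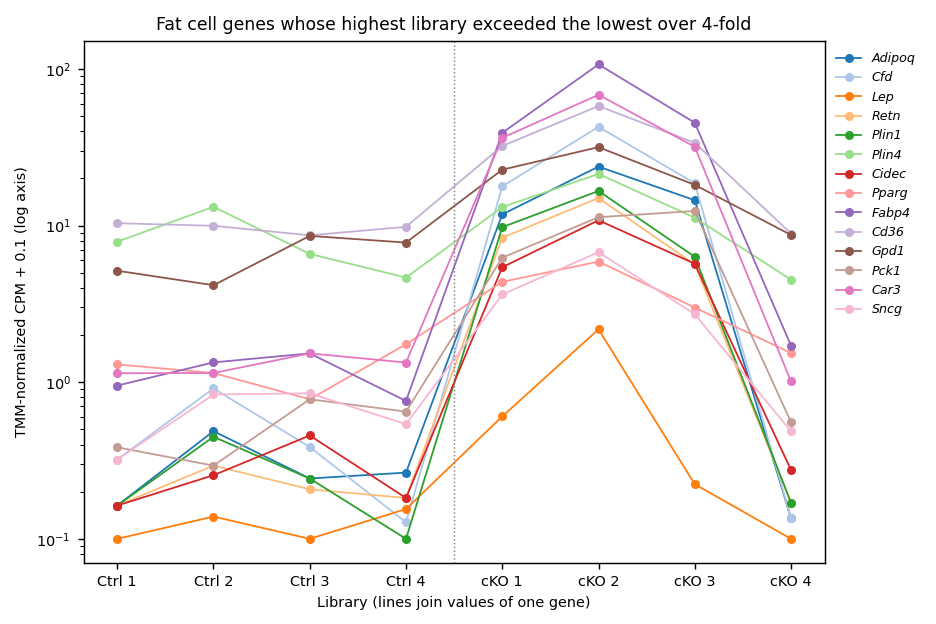
TMM-normalized CPM plus 0.1 (log axis) of the 14 fat cell genes with an over 4-fold range, in each of the 8 libraries, with lines joining the values of one gene. Of the 14 genes, 13 are higher in each of cKO 1 to 3 than in the other 5 libraries, and cKO 4 lies within the range of the controls in 9.

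The proteins of the lipid droplet split in the same way into genes of white fat and genes of wider use. *Plin1* encodes perilipin 1, the coat protein of the large droplet of a fat cell, at chr7:79721164-79732904. It was at 0.0631, 0.348, 0.143 and 0 CPM in Ctrl 1 to 4 and at 9.67, 16.5, 6.22 and 0.0701 CPM in cKO 1 to 4. *Cidec* drives the fusion of droplets. It was at 0.0631, 0.155, 0.357 and 0.0824 CPM in controls and at 5.32, 10.7, 5.61 and 0.175 CPM in cKO. Both were higher in cKO 1 to 3 than in every control and were within the control range in cKO 4. The log2 fold change was 5.98 for *Plin1* (SE 1.50, adjusted p = 0.0765 in edgeR's quasi-likelihood test) and 5.08 for *Cidec* (SE 1.18, adjusted p = 0.0573). Without cKO 4 they were 6.39 (SE 0.59, adjusted p = 0.000598) and 5.49 (SE 0.43, adjusted p = 9.96e-05). *Plin4*, a coat protein of small droplets in fat and muscle, was at 7.79, 13.1, 6.49 and 4.56 CPM in controls and at 13.0, 21.3, 11.1 and 4.41 CPM in cKO. It was the only one of the 14 genes with an over 4-fold range in which a control, Ctrl 2, exceeded cKO 1 and cKO 3 (log2 fold change 0.65, SE 0.50). *Plin5*, the perilipin of tissues that oxidize fat, was at 0.232 to 0.892 CPM in controls and 0.462 to 0.946 CPM in cKO, and its highest value was in cKO 4. Its ranges overlapped, with a log2 fold change of 0.22 (SE 0.38).

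Of the transcription factors, only *Pparg* differed between libraries by more than 4-fold. *Pparg*, at chr6:115360879-115490404, encodes the nuclear receptor that directs the differentiation of fat cells. It was at 1.20, 1.04, 0.678 and 1.65 CPM in Ctrl 1 to 4 and at 4.27, 5.79, 2.90 and 1.44 CPM in cKO 1 to 4. cKO 4 lay below Ctrl 4, so the groups overlapped. Its log2 fold change was 1.63 (SE 0.40, adjusted p = 0.0418 in edgeR's quasi-likelihood test), and without cKO 4 it was 1.89 (SE 0.29, adjusted p = 0.0030). The call did not stand in all fits. It was lost without Ctrl 1 (adjusted p = 0.119), without Ctrl 2 (0.0983), without Ctrl 3 (0.0978), without cKO 1 (0.104), without cKO 2 (0.0930) and without cKO 3 (0.0738). It was also lost without a filter on low counts (0.0685), with limma-voom (0.102) and with the replicate number as a block (0.0812). *Cebpa*, which maintains the differentiated state, was at 13.1, 15.4, 10.2 and 10.8 CPM in controls and 12.04, 15.7, 14.5 and 9.98 CPM in cKO. *Cebpb*, which acts early in differentiation, was at 4.10, 5.11, 5.46 and 4.94 CPM in controls and 4.58, 5.66, 6.47 and 6.51 CPM in cKO. Both sets of values overlapped, with log2 fold changes of 0.08 (SE 0.16) and 0.25 (SE 0.15). *Ppargc1a*, the coactivator of mitochondrial biogenesis and of thermogenesis in brown fat, was at 17.9, 20.8, 17.9 and 21.8 CPM in controls and 19.2, 18.1, 20.6 and 23.3 CPM in cKO (log2 fold change 0.05, SE 0.10). Its highest library was cKO 4, the library in which *Pparg* was at the control level.

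The genes of fatty acid and glucose uptake held *Fabp4*, a transcript typical of fat cells, and genes shared with other tissues. *Fabp4* encodes the fatty acid binding protein of adipocytes, which is also found in endothelium and macrophages, at chr3:10204342-10208616. It was at 0.852, 1.24, 1.43 and 0.659 CPM in Ctrl 1 to 4 and at 39.0, 106.7, 45.3 and 1.61 CPM in cKO 1 to 4. All 4 cKO libraries were above all controls, cKO 4 by a factor of 1.13 over the highest of them and cKO 2 by 74.8. The log2 fold change was 5.56 (SE 1.27, adjusted p = 0.0615 in edgeR's quasi-likelihood test), and without cKO 4 it was 5.97 (SE 0.52, adjusted p = 0.0017). *Cd36*, a fatty acid transporter also used by muscle, endothelium and macrophages, had a clear level in controls. It was at 10.3, 9.86, 8.56 and 9.72 CPM in controls and at 32.1, 57.9, 33.6 and 8.79 CPM in cKO, with cKO 4 inside the control range. Its log2 fold change was 1.79 (SE 0.52, adjusted p = 0.108 in the same test), and without cKO 4 it was 2.10 (SE 0.20, adjusted p = 0.000541).

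The other 3 genes of uptake had control levels well above the floor and smaller differences in the same libraries. *Lpl* encodes lipoprotein lipase, which frees fatty acids from circulating lipoproteins. It was at 98.0 to 108.5 CPM in controls and at 154.0, 223.6, 151.2 and 111.1 CPM in cKO 1 to 4, so that the groups did not overlap (log2 fold change 0.63, SE 0.18, adjusted p = 0.0845 in edgeR's quasi-likelihood test; 0.77, SE 0.12 and 0.0056 without cKO 4). *Acsl1*, which activates long fatty acids by joining them to coenzyme A, was at 22.8 to 26.5 CPM in controls and 45.3, 65.9, 49.8 and 26.1 CPM in cKO (log2 fold change 0.92, SE 0.24, adjusted p = 0.0701 in that test; 1.12, SE 0.12 and 0.000379 without cKO 4). *Slc2a4*, the insulin-responsive glucose transporter GLUT4 of fat and muscle, was at 35.9 to 42.3 CPM in controls and 46.5, 49.3, 47.4 and 34.1 CPM in cKO (log2 fold change 0.18, SE 0.11). For *Acsl1* cKO 4 lay within the control range, and for *Slc2a4* below it. Among all 38 genes tested, every cKO library was above every control in 3, *Fabp4*, *Lpl* and *Gpd1*, beside 5.9% of all genes tested. Every cKO library was below every control in 0, beside 6.43% of all genes.

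Lipases and enzymes of triglyceride synthesis differed by gene. *Lipe*, hormone-sensitive lipase, was at 9.62 to 11.2 CPM in controls and at 16.9, 22.1, 17.4 and 10.2 CPM in cKO 1 to 4 (log2 fold change 0.69, SE 0.19, adjusted p = 0.0593 in edgeR's quasi-likelihood test; 0.86, SE 0.11 and 0.00095 without cKO 4). *Pnpla2*, the lipase that removes the first fatty acid of a triglyceride, was at 41.0 to 56.7 CPM in controls and 55.5, 62.0, 61.0 and 43.7 CPM in cKO, and Ctrl 2 exceeded cKO 1. *Mgll*, which removes the last, was at 66.5 to 76.7 CPM in controls and 91.1, 89.1, 75.3 and 80.8 CPM in cKO. The ranges overlapped for each of these lipases. *Gpd1* makes the glycerol phosphate on which triglycerides are built and is also used by muscle and brown fat. It was at 5.05, 4.06, 8.49 and 7.69 CPM in controls and at 22.6, 31.6, 18.1 and 8.62 CPM in cKO (log2 fold change 1.67, SE 0.41, adjusted p = 0.0647 in the same test; 1.92, SE 0.27 and 0.0039 without cKO 4). cKO 4 exceeded the highest control of *Gpd1* by a factor of only 1.01. *Pck1*, which supplies glycerol phosphate in fat and glucose in liver and kidney, was at 0.284, 0.193, 0.678 and 0.549 CPM in controls and at 6.14, 11.2, 12.3 and 0.455 CPM in cKO. It was the only one of the 14 genes with its highest value in cKO 3 (log2 fold change 4.11, SE 0.97, adjusted p = 0.0607; 4.51, SE 0.35 and 9.96e-05 without cKO 4). The acyltransferases *Dgat1*, *Dgat2*, *Gpam* and *Agpat2*, which add fatty acids to the glycerol backbone in most tissues, had log2 fold changes of -0.08 to 0.16. Their ranges overlapped in every case.

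The 7 genes of fatty acid synthesis were abundant in every library, and 0 of them were DE in edgeR or DESeq2, with 1, *Scd1*, at an unadjusted p below 0.05. *Fasn*, the fatty acid synthase, was at 211.0, 264.6, 199.8 and 218.2 CPM in Ctrl 1 to 4 and at 219.1, 193.7, 203.5 and 185.2 CPM in cKO 1 to 4 (log2 fold change -0.16, SE 0.09). *Acaca*, the carboxylase that makes malonyl coenzyme A, was at 77.3, 76.5, 72.6 and 85.3 CPM in controls and 74.3, 75.9, 76.2 and 78.6 CPM in cKO (log2 fold change -0.03, SE 0.06). The ranges of the groups overlapped for both genes. *Scd1*, the desaturase that makes oleic acid, was the exception of the group. It was at 165.3, 169.7, 223.6 and 226.5 CPM in controls and at 324.8, 448.4, 279.4 and 202.9 CPM in cKO, with cKO 1 to 3 each above the highest control and cKO 4 among the controls. Its log2 fold change was 0.68 (SE 0.24, adjusted p = 0.161 in edgeR's quasi-likelihood test), and without cKO 4 it was 0.84 (SE 0.18, adjusted p = 0.0241), still under 2-fold. *Acacb*, *Acly*, *Elovl6* and *Thrsp* had log2 fold changes of 0.16, 0.08, -0.19 and -0.04, and their groups overlapped.

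**Figure D3:**
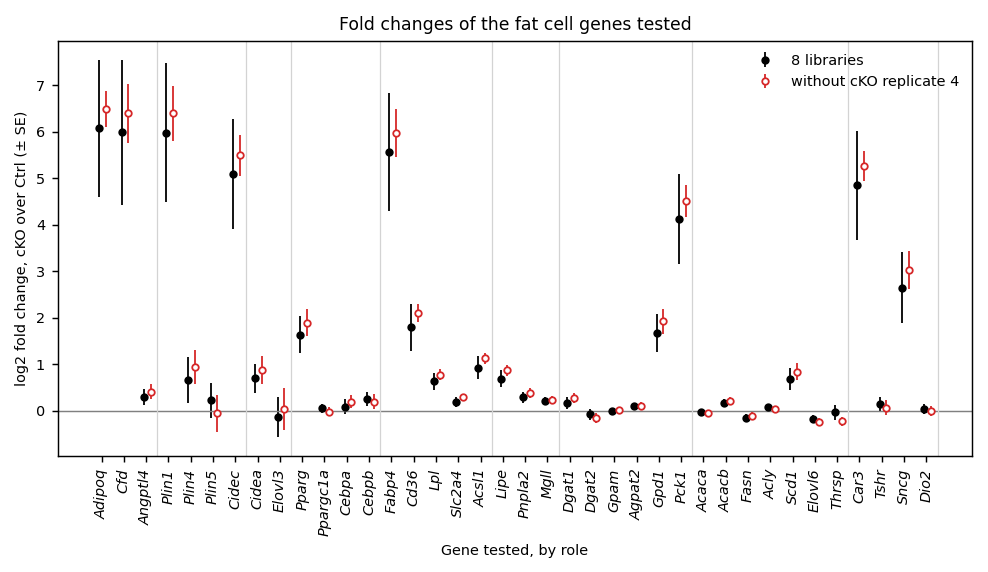
Log2 fold change (cKO over control) with its standard error for the 38 fat cell genes tested, from all 8 libraries (filled) and without cKO replicate 4 (open). *Adipoq*, *Cfd*, *Plin1*, *Cidec*, *Fabp4*, *Pck1* and *Car3* lie above 4 in both fits with shorter error bars without cKO 4, and the fatty acid synthesis genes other than *Scd1* lie near 0.

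Of the 3 brown fat genes, *Ucp1* and *Elovl3* did not have the pattern of the white fat genes. *Cidea* had cKO 1 to 3 above the other 5 libraries, as 9.18% of all genes tested did. Its cKO 2 value was the lowest of cKO 1 to 3, whereas 13 of the 14 genes with an over 4-fold range were highest in cKO 2. *Ucp1*, the uncoupling protein that defines a brown adipocyte, was at 0.0631, 0, 0.321 and 0.0824 CPM in Ctrl 1 to 4 and at 0.0388, 0.0335, 0.0616 and 0.210 CPM in cKO 1 to 4. These were 14 counts in all controls and 10 in all cKO libraries, a ratio of 0.747 at equal depth (95% counting interval 0.297 to 1.81). The highest cKO library of *Ucp1* was cKO 4, with 6 counts, and the libraries rich in *Adipoq* held 1, 1 and 2. *Elovl3*, an elongase induced by cold in brown fat, was at 0.221, 0.232, 0.178 and 0.137 CPM in controls and 0.233, 0.201, 0.154 and 0.105 CPM in cKO (log2 fold change -0.14, SE 0.43, adjusted p = 0.889 in edgeR's quasi-likelihood test). Its 8 libraries held between 3 and 7 counts each, and the ratio at equal depth was 0.910 (0.474 to 1.73). *Cidea*, a droplet protein of brown fat that is also found in sebaceous and mammary gland, was at 0.505, 0.580, 0.535 and 0.494 CPM in controls and 1.36, 0.703, 0.863 and 0.525 CPM in cKO. cKO 1 to 3 were each above the highest *Cidea* control, with 21 to 35 counts against 15 to 18, and the difference did not pass (log2 fold change 0.70, SE 0.31, adjusted p = 0.220 in that test). A difference of *Ucp1* or *Elovl3* inside these intervals was not detectable at this depth.

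Of the 4 remaining genes, a pair followed the white fat genes. *Car3*, a carbonic anhydrase abundant in fat and in slow muscle, was at 1.04, 1.04, 1.43 and 1.24 CPM in Ctrl 1 to 4 and at 36.2, 68.3, 31.7 and 0.911 CPM in cKO 1 to 4. Its cKO 4 value was the lowest of the 8 libraries (log2 fold change 4.85, SE 1.17, adjusted p = 0.0722 in edgeR's quasi-likelihood test; 5.25, SE 0.32 and 0.000105 without cKO 4). *Sncg*, gamma-synuclein, which is expressed in white fat and in sensory neurons, was at 0.221, 0.735, 0.749 and 0.439 CPM in controls and 3.53, 6.66, 2.62 and 0.385 CPM in cKO (log2 fold change 2.65, SE 0.75, adjusted p = 0.0882 in that test; 3.02, SE 0.41 and 0.0020 without cKO 4). *Tshr*, the thyrotropin receptor, was at 4.67 to 6.03 CPM in controls and 4.74 to 6.58 CPM in cKO. *Dio2*, the deiodinase that makes active thyroid hormone, was at 90.7 to 101.5 CPM in controls and at 75.2, 104.6, 106.9 and 105.1 CPM in cKO. Neither *Tshr* nor *Dio2* followed the order of the white fat genes over the libraries.

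The single cKO libraries were also set against each other, as a description with counting intervals. All 28 pairs of libraries differed by more than counting error, with a chi-square per gene of 7.49 to 30.5 over all genes, so an interval that leaves out 1, or a pair of intervals that do not meet, does not show a difference between genes. Of the 14 genes with an over 4-fold range, 13 were highest in cKO 2. The smallest range among them was that of *Plin4*, with the highest library 4.72 times the lowest plus 0.1 CPM, and the widest range among the genes left out and above 1 CPM was that of *Acsl1*, at 2.88. Set against cKO 1, the ratio in cKO 2 ran from 1.36 for *Pparg* (95% counting interval 1.06 to 1.74) to 4.11 for *Lep* (2.24 to 8.15), with a median of 1.86. *Fabp4* had a ratio of 2.74 (2.55 to 2.94) and *Cd36* one of 1.80 (1.66 to 1.96). The ratio of cKO 3 to cKO 1 ran from 0.244 for *Lep* (0.0580 to 0.790) to 2.00 for *Pck1* (1.66 to 2.42), with a median of 0.866. *Plin1*, at 0.644 (0.532 to 0.778), and *Adipoq*, at 1.23 (1.06 to 1.43), lay on opposite sides of 1. The ratio of cKO 4 to cKO 1 ran from 0 for *Lep* to 0.381 for *Gpd1* (0.327 to 0.442), with a median of 0.0371. Among the 14 genes, cKO 4 lay within the control range in 9, and Ctrl 2 was the highest control in 5, *Adipoq*, *Cfd*, *Retn*, *Plin1* and *Plin4*. Among all 41 genes, cKO 1, 2 and 3 were each above the other 5 libraries in 19, of which 17 were among the 38 tested, beside 9.18% of all genes tested. This grouping of libraries was made after the values were seen, and nothing is read from the share.

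**Figure D4:**
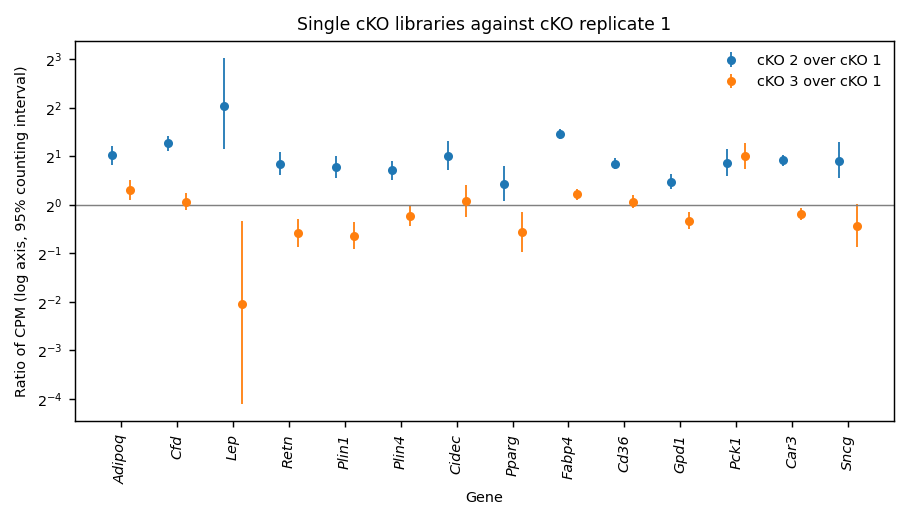
Ratio of CPM in cKO 2 over cKO 1 and in cKO 3 over cKO 1 (log axis) for the 14 fat cell genes with an over 4-fold range, with 95% counting intervals. The cKO 2 ratios all lie above 1, with a median of 1.86, and the cKO 3 ratios lie on both sides of 1, from 0.244 for *Lep* to 2.00 for *Pck1*.

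Levels of different genes were compared per kilobase of transcript, as CPM divided by transcript length (RPKM). In controls the lipogenic regulator *Thrsp* ranked highest of the 41, at 72.3 ± 9.28 RPKM (SD, n = 4), followed by *Acly* at 56.0 ± 3.33 and *Dgat2* at 53.6 ± 8.54. The last 2 did not differ beyond their spread. *Fabp4* ranked 27 of 41 in controls, at 1.17 ± 0.392 RPKM. It ranked 5 in cKO 1 (43.5 RPKM), 1 in cKO 2 (119.1 RPKM), 4 in cKO 3 (50.5 RPKM) and 25 in cKO 4 (1.80 RPKM). In cKO 2 *Fabp4* was followed by *Scd1* at 92.8 RPKM, *Thrsp* at 61.1 RPKM and *Lpl* at 54.3 RPKM. *Cfd* ranked 7 there, at 46.2 RPKM, and *Adipoq* 13, at 18.3 RPKM. *Ucp1* was at 0.0237, 0.0205 and 0.0377 RPKM in cKO 1, 2 and 3, which stood for 1, 1 and 2 counts, under the floor of 3 counts, so no rank is given for it.

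The other genes of the pathway were counted from lists that hold none of the 41. Of 17 further white fat genes, 15 were tested, 5 were DE and higher and 0 lower. They were *Adrb3*, the beta-3 adrenergic receptor of fat (log2 fold change 1.34, SE 0.20, adjusted p = 0.0020 in edgeR's quasi-likelihood test), *Klb*, the co-receptor of FGF21 (2.59, SE 0.58, adjusted p = 0.0256), *Adig*, adipogenin (2.25, SE 0.47, adjusted p = 0.0177), *Acvr1c*, the activin receptor ALK7 (1.25, SE 0.22, adjusted p = 0.0065), and *Slc7a10*, an amino acid transporter (1.60, SE 0.26, adjusted p = 0.0039). All 5 were above every control in cKO 4 as well, *Klb* and *Adig* by little, at 0.280 CPM against at most 0.250 CPM and at 0.315 CPM against at most 0.285 CPM. Without cKO 4, 8 of the list were DE and higher (1.25% of all genes), with DESeq2 7 (0.828%) and with limma-voom 3 (0.594%). *Klb* was at 0.126, 0.155, 0.250 and 0.110 CPM in controls and 1.01, 1.94, 0.616 and 0.280 CPM in cKO 1 to 4. *Adig* was at 0.252, 0.271, 0.285 and 0.275 CPM in controls and 1.48, 2.07, 1.32 and 0.315 CPM in cKO. For both genes cKO 2 was the highest library. *Acvr1c* was at 1.73, 1.74, 1.61 and 1.84 CPM in controls and 3.88, 6.09, 3.76 and 2.73 CPM in cKO. *Adrb3* was at 0.915, 1.12, 1.18 and 1.02 CPM in Ctrl 1 to 4 and at 2.80, 3.35, 2.43 and 2.10 CPM in cKO 1 to 4. *Slc7a10* was at 1.26 to 1.70 CPM in controls and at 5.75, 6.22, 3.42 and 2.73 CPM in cKO. *Mrap*, an accessory protein of the melanocortin receptors, was not tested and followed the white fat genes closely, with 0, 0, 0 and 0.0275 CPM in controls and 1.17, 2.28, 1.14 and 0 CPM in cKO. *Aqp7*, the glycerol channel of fat cells, and *Trarg1*, a regulator of GLUT4 trafficking, were not DE (log2 fold change 2.65, SE 0.75, adjusted p = 0.0704 and 1.27, SE 0.46, adjusted p = 0.147, both in edgeR's quasi-likelihood test). *Aqp7* was at 0.0549 to 0.309 CPM in controls and 0.971, 2.18, 1.02 and 0.105 CPM in cKO 1 to 4. *Trarg1* was at 0.963 to 1.93 CPM in controls and 3.73, 4.79, 2.53 and 0.806 CPM in cKO. For both genes cKO 1 to 3 were above the other 5 libraries, as for the white fat genes. *Lpin1*, *Abhd5* and *Pde3b* had log2 fold changes of 0.19, 0.02 and 0.01, and *G0s2* was at 0 in all libraries.

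Of 17 further brown fat genes, 13 were tested, 2 were DE and higher and 0 lower. These were *Lhx8*, a LIM homeobox factor (log2 fold change 2.25, SE 0.34, adjusted p = 0.0023 in edgeR's quasi-likelihood test), and *Slc36a2*, an amino acid transporter (1.42, SE 0.32, adjusted p = 0.0234). *Lhx8* is also known from the forebrain, and it was at 0.110 to 0.464 CPM in controls and 1.40, 1.47, 1.76 and 1.12 CPM in cKO 1 to 4. *Slc36a2* was at 0.946 to 1.39 CPM in controls and 3.50, 4.35, 2.80 and 1.30 CPM in cKO, so cKO 4 lay among the controls. DESeq2 called 2 genes of this list and limma-voom 1, all higher. The log2 fold change was above 0 in 5 of the 13 tested and below 0 in 8, with a median of -0.02. *Ppara* was below every control in all 4 cKO libraries and was not DE (-0.43, SE 0.13, adjusted p = 0.0796 in edgeR's quasi-likelihood test). *Cox7a1* and *Cox8b*, respiratory chain subunits of brown fat and muscle, and *Prdm16*, a regulator of brown fat, had log2 fold changes of -0.22, 0.28 and 0.05. *Ebf2*, another regulator of brown fat, was not tested. It was at 0.126, 0.155, 0 and 0.110 CPM in controls and 0.854, 1.51, 0.554 and 0.0350 CPM in cKO 1 to 4, so that cKO 1 to 3 were above the other 5 libraries, as for the white fat genes. *Otop1* was at 0 in all libraries. Of 12 further adipogenic transcription factors, all tested, 0 were DE in edgeR or DESeq2 and 5 had an unadjusted p below 0.05, beside 21.2% of all genes. Of these 5, *Klf15*, a glucocorticoid-induced factor, was lower by less than 2-fold (-0.68, SE 0.13, adjusted p = 0.0104 in the same test). *Nr1h3* was lower too (-0.43, SE 0.14, adjusted p = 0.0925 in that test), and both were below every control in all cKO libraries. *Srebf1*, *Zfp467* and *Stat5a* were higher, with log2 fold changes of 0.21, 0.26 and 0.28. Of 9 preadipocyte genes and inhibitors of adipogenesis, 8 were tested, and 1, *Dlk1*, was DE and higher. *Dlk1* encodes an inhibitor of fat cell differentiation that is also imprinted and expressed in many fetal tissues. It was at 144.0, 150.1, 110.0 and 138.3 CPM in controls and at 290.0, 285.0, 314.1 and 254.5 CPM in cKO (1.08, SE 0.09, adjusted p = 6.68e-05), with all 4 cKO libraries above all controls. The shares of all genes that were DE were 0.666% higher and 0.636% lower, and the lists were written with earlier results of these data known.

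Markers of other tissues that could accompany fat were read in the same libraries, as the sum of each list's CPM. Endothelial genes summed to 716.3 to 895.5 CPM in controls and to 859.9, 933.7, 912.8 and 740.7 CPM in cKO 1 to 4, with 0 of 8 DE and 3 at an unadjusted p below 0.05 in edgeR. Macrophage genes summed to 161.8 to 227.3 CPM in controls and 196.6, 191.9, 188.1 and 166.2 CPM in cKO, with 0 of 7 DE and 1 at that p. Schwann cell genes summed to 22.2 to 24.4 CPM in controls and 33.2, 25.9, 28.1 and 27.0 CPM in cKO, with 0 of 5 DE and 4 at that p. Every cKO library was above every control in *Sox10* and *Ncmap*, beside 5.9% of all genes tested. *Sox10* passed the adjusted p by less than 2-fold (log2 fold change 0.92, SE 0.23, adjusted p = 0.0407 in edgeR's quasi-likelihood test). DESeq2 likewise called 0 genes of these 3 lists, and without cKO 4 edgeR called 1 Schwann cell gene. Skeletal muscle genes overlapped as a sum, at 57.3 to 93.8 CPM in controls and 81.9, 77.9, 57.2 and 75.8 CPM in cKO. The sum was mostly *Acta1*, skeletal actin, at 39.7 to 70.1 CPM in controls and 33.1 to 51.6 CPM in cKO. Of the 11 muscle genes 7 were tested, 5 had an unadjusted p below 0.05 (21.2% of all genes), and 1 was DE, *Myh3*, the embryonic myosin heavy chain. Every cKO library was above every control in 4, *Myh3*, *Tnnt3*, *Actn3* and *Mylpf*, beside 5.9% of all genes tested. *Myh3* was at 0, 0.0387, 0.143 and 0.110 CPM in controls and 1.55, 1.91, 0.370 and 1.47 CPM in cKO, so it was high in cKO 4 and lowest of the cKO libraries in cKO 3. *Myh8*, the perinatal myosin heavy chain, was not tested, and was at 0, 0.155, 0.143 and 0.0275 CPM in controls and 0.932, 0.636, 0.123 and 0.315 CPM in cKO. The adult myosins *Myh1*, *Myh2* and *Myh4* were under 3 counts in every library. Mesothelial genes summed to 197.4 to 284.4 CPM in controls and 247.8 to 259.3 CPM in cKO, and ovarian genes to 60.4 to 70.3 CPM and 52.6 to 69.6 CPM. Of the 8 ovarian genes, 5 were tested, 0 were DE in edgeR or DESeq2 and 3 had an unadjusted p below 0.05. Most of their sum was *Foxl2*, which was also at that p and was lower in cKO (log2 fold change -0.22, SE 0.09, adjusted p = 0.176 in edgeR's quasi-likelihood test). *Gdf9* and *Star* had log2 fold changes of -0.28 (SE 0.23) and 0.07 (SE 0.18). *Inha*, the inhibin alpha subunit, was at 3.95 to 5.34 CPM in controls and 8.70, 8.80, 6.56 and 4.52 CPM in cKO 1 to 4 (log2 fold change 0.60, SE 0.20, adjusted p = 0.0994 in edgeR's quasi-likelihood test), so that cKO 1 to 3 were above the other 5 libraries. *Cyp11a1*, an enzyme of steroid synthesis, was at 0.232 to 0.642 CPM in controls and 1.28, 0.636, 0.832 and 0.841 CPM in cKO (log2 fold change 1.15, SE 0.36, adjusted p = 0.0851 in that test). Lymphocyte genes summed to 1.37 to 2.68 CPM and 2.03 to 3.22 CPM, stratified epithelial genes to 15.05 to 18.3 CPM and 14.8 to 18.5 CPM. The 4 liver genes, of which 0 were tested, summed to 0.107 to 0.193 CPM in controls and 0.388, 1.44, 0.370 and 0.175 CPM in cKO, with *Alb* at 1.14 CPM in cKO 2.

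The tissue itself was checked by its own markers. Uterine stromal genes summed to 1778 to 1947 CPM in controls and 1418, 1424, 1593 and 1674 CPM in cKO 1 to 4, smooth muscle genes to 5454 to 7284 CPM and 6207 to 7034 CPM, and simple epithelial genes to 1172 to 1432 CPM and 1327 to 1611 CPM. All 5 stromal genes had a log2 fold change below 0, and a pair of them, *Hoxa10* (-0.62, SE 0.07, adjusted p = 0.000377 in edgeR's quasi-likelihood test) and *Hoxa11* (-0.49, SE 0.08, adjusted p = 0.0052), were lower by less than 2-fold. The part of any of these lists in the levels of the fat cell genes was not tested.

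Among genes outside the 41, those whose log2 levels over the 8 libraries followed the mean of *Adipoq*, *Plin1* and *Cidec* most closely were *Trim41*, *Sema4c*, *Plekhh3*, *Myo7a*, *Setd1a*, *Adig*, *Gm12295*, *Mrap*, *Sik1* and *Ndst3*, with Pearson's r of 0.980 to 0.991 over 16906 genes compared. The points are 8 libraries of only 2 genotypes, so r is a description. Of these 10 only *Adig* and *Mrap* are fat cell genes by the lists above, and for *Trim41* the libraries differed little, from 55.1 to 58.6 CPM in controls and with 66.7, 67.0, 65.3 and 56.0 CPM in cKO 1 to 4. Within the 41 genes, r with the same mean was 0.996 for *Retn*, 0.990 for *Fabp4* and *Car3*, 0.988 for *Lipe*, 0.987 for *Cfd* and 0.955 for *Pck1*. It was 0.880 for *Pparg*, 0.808 for *Cidea*, 0.316 for *Elovl3*, -0.148 for *Fasn* and -0.752 for *Elovl6*.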

How the data were processed

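RNA from whole uteri at PD10 was sequenced in 4 control and 4 cKO libraries made with a stranded mRNA kit. Per the study's methods and the submitters' processing notes, the authors used Trimmomatic for trimming, FastQC for quality checks, HISAT2 for alignment to GRCm38 and featureCounts for counting, and the values they deposited are whole-number counts per gene and library. The annotation release, the strand setting and the handling of multi-mapped reads are not given in the sources used here, so genes that share sequence or overlap may be miscounted. The authors' table of fold changes and p-values and their table of normalized values were not used, apart from gene symbols, which were joined to the counts by gene ID.

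Genes with CPM over 0.2 in at least 4 libraries (16658 of 27179) were tested with edgeR 4.0.16 in R 4.3.3 (TMM, robust quasi-likelihood F-test, Benjamini-Hochberg adjustment, no covariates), after the study's methods, and DE required both an adjusted p under 0.05 and a change of more than 2-fold. The SE is the log2 fold change divided by the root of F. All 8 libraries entered, with groups from the sample labels. The procedure was tested on simulated data. Alternatives were RLE scaling, no filter, the filter in 3 libraries, DESeq2 1.42.0, limma-voom (limma 3.58.1), the replicate number as a block, the adjusted p alone, a prior count of 2 and each library left out. The labels do not state whether replicate numbers pair the samples. Ratios of counts carry 95% exact conditional binomial intervals. RPKM used the longest principal transcript of GENCODE vM21, and gene positions and promoters came from RefSeq on GRCm38.p6.

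The genes and all lists were chosen with earlier results of these data known. Values in every library were given for genes whose highest library reached 1 CPM and exceeded 4 times the lowest plus 0.1 CPM, for the 3 brown fat genes, the 4 transcription factors and *Fasn*, *Acaca* and *Scd1*. In other lists they were given for genes that were DE, with the controls of *Slc7a10*, *Lhx8* and *Slc36a2* as a range. The 10 genes nearest in pattern were ranked by Pearson's r of log2(CPM + 0.1). *Nat8l*, *Klf15*, *Hoxa10*, *Hoxa11*, *Myh3*, *Alb* and the genes of the other lists that were named without being DE were chosen after their values were seen.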

Additional observations from a re-analysis of the deposited data

Results flagged for a closer look

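In 81 groups of 4 libraries (each fat cell gene in each genotype, where levels allowed), the lowest or highest library was set against the other 3 by its gap over the whole range on the log2(CPM + 0.1) scale. Chance gives about 1 such gap in 20 groups, and 5 of the 81 had one. In 3 of the 5 the library was cKO 4, as the lowest. The genes were chosen with the low values of cKO 4 known, so these 3 restate that choice and are a description. *Adipoq* was at 0.0350 CPM in cKO 4 and at 11.7 to 23.7 CPM in the other cKO libraries. *Cfd* was also at 0.0350 CPM in cKO 4, against 17.7 to 42.6 CPM. *Slc2a4*, encoding GLUT4, was at 34.1 CPM in cKO 4 against 46.5 to 49.3 CPM. The remaining pair concerned other libraries. *Pnpla2* was at 56.7 CPM in Ctrl 2 against 41.0 to 43.2 CPM in the other controls, and *Dio2* was at 75.2 CPM in cKO 1 against 104.6 to 106.9 CPM in the other cKO libraries.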

How the results depend on the processing

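Of 570 fold changes of single fat cell genes recomputed under the alternatives, 0 turned a called direction, 524 stayed on their side of an adjusted p of 0.05 (of any fold), 37 passed it anew (16 without cKO replicate 4, 13 with DESeq2, 6 with the replicate block) and 9, all of *Pparg*, lost it. The prior count of 2 changes the fold change and not the adjusted p, so its values, counted among those that stayed, could not change sides. The number of the 41 genes that were DE was 1 with all libraries, 0 without a filter on low counts (beside 0.553% of all genes DE and higher), 0 with limma-voom, 11 with DESeq2, and 0 to 12 when 1 library was left out, with 12 without cKO replicate 4, 1 without Ctrl replicate 4 and 0 without any of the other 6. The cause of these shifts beyond the loss of a library was not tested. Over all genes, 217 were DE, 889 with the adjusted p alone, and 142 to 336 with 1 library left out, the lowest without cKO replicate 2 (143 without Ctrl replicate 1) and the highest without cKO replicate 4. The median log2 fold change of the fat cell genes tested went from 0.22 to 0.33. The log2 fold change of *Pparg* was 1.30 to 1.89 over the fits, with adjusted p of 0.0685 without a filter and 0.102 with limma-voom.

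Control and cKO libraries share replicate numbers 1 to 4, and the labels do not state whether these pair the samples. Deviations of same-numbered libraries from their group means correlated at 0.0236, 0.113, -0.00354 and 0.194. The highest correlation of the same control with another number was 0.112, 0.166, 0.0896 and 0.12. Only number 4 thus correlated best with its own number. Such weak values cannot settle whether the samples are paired. With the replicate number as a block, 4 of the fat cell genes were DE, *Adipoq*, *Cfd*, *Plin1* and *Cidec*, beside 0.816% of all genes, and *Pparg* was not (log2 fold change 1.54, adjusted p = 0.0812). Depth limited *Ucp1*, *Elovl3* and *Lep*, whose counts were at most 9, 7 and 62 per library.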

Other observations

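The DE genes of the further fat cell lists differed in how far their level in cKO 4 lay from the controls. They are grouped here after the values were seen, without a test. *Klb*, *Adig* and *Slc36a2* were at 0.280, 0.315 and 1.30 CPM in cKO 4, against at most 0.250, 0.285 and 1.39 CPM in controls. Of these, *Klb* and *Adig* lay above every control in cKO 4 and *Slc36a2* did not. *Adrb3*, *Acvr1c*, *Slc7a10*, *Lhx8* and *Dlk1* were at 2.10, 2.73, 2.73, 1.12 and 254.5 CPM in cKO 4, against at most 1.18, 1.84, 1.70, 0.464 and 150.1 CPM in controls. *Nat8l*, which makes N-acetylaspartate and is expressed in fat and brain, passed the adjusted p by less than 2-fold and was near the controls in cKO 4, at 2.17 CPM in cKO 4 against at most 2.05 CPM in controls and 3.57 to 4.47 CPM in cKO 1 to 3.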
